A study of Mus musculus with 12 samples.

Results

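The comparison described here is dermis labelled tail against dermis labelled back in mice at P1, 1 day after birth. Its members were taken from the sample titles as the 3 arrays titled P1 Tail (replicates 4, 5 and 6) and the 3 titled P1 Back (replicates 1, 5 and 6), which makes 6 of the 12 arrays of the series. The other 6 arrays hold the same contrast at P5, with 3 arrays a site, and were used for the common estimate of the spread and to set each P1 difference beside its P5 counterpart. The study asked why small wounds in neonatal skin regrow hair follicles (HFs) and how that capacity depends on age and body site, and these arrays profile unwounded skin.

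All mice were C57Bl6/CBA F1 hybrids, and the labels give no engineered allele or treatment. Tail skin was loosened in EDTA and back skin in a mixture of dispase and trypsin, after which the dermis was pulled away with forceps, digested to single cells and lysed for RNA, so that body site and separating solution cannot be told apart in any difference below. RNA came from triplicate mice, with 1 mouse assumed for each array. The values are microarray signals on the log2 scale, with each probe set centred on its own median over the 12 arrays. A value of 1 on this scale is a 2-fold higher signal than that median, levels of different genes cannot be compared, and whether a gene was present at all cannot be read. Differences are given as labelled tail minus labelled back with the standard error (SE) of limma's fit, a linear model with a moderated variance, and the p-values were adjusted with the Benjamini-Hochberg method over all 18193 genes. A gene is said to be higher or lower where that adjusted p was under 0.05.

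The labels were first checked against genes known to mark body sites, and those genes ran against them. This held for Krt2, posterior Hox genes and fat genes as a list at both ages, and for the fat gene Adipoq at P1. Krt2, a keratin of the upper epidermal layers known from tail, ear and sole skin, read -2.50, -1.77 and -1.82 on the arrays labelled tail and 5.32, 5.66 and 5.64 on those labelled back. Its difference was -7.57 (SE 0.28, limma adjusted p = 3e-08) at P1 and -3.96 at P5. The posterior genes Hoxd10, Hoxd11 and Hoxa11, which pattern the hind part of the body, were likewise lower in labelled tail, by -3.32, -3.09 and -2.95 at P1 and by -3.05, -3.28 and -2.52 at P5. The fat hormone Adipoq was higher in labelled tail by 5.23 (SE 0.28, limma adjusted p = 5e-07) at P1, and its difference of 0.79 at P5 did not pass (limma adjusted p = 0.12). Of 36 adipocyte genes, 18 were higher and 0 lower at P1 (median 0.75), and 12 were higher and 0 lower at P5 (median 0.40). Of 19 anterior Hox genes, 6 were higher and 0 lower at P1, and 8 were higher and 0 lower at P5. Over all genes 2.06% were higher at P1 and 4.3% at P5. The study itself describes more fat in back dermis than in tail dermis. For the fat genes that passed, the direction found here was the opposite one at both ages. The groups were left as labelled, and every direction below refers to the label and not to an anatomical site that was verified.

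Dermis is made up of fibroblasts and their collagen-rich matrix, and it holds the developing HFs with their dermal papilla, pigment cells, mast cells, macrophages, vessels and nerves. Keratinocytes belong to the epidermis and to the HF epithelium, which dips into the dermis and stays behind in part when the epidermis is peeled off. Skin fibroblasts of different body regions keep distinct sets of patterning transcription factors into adult life.

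Of the 18193 genes, 722 differed at P1 (3.97%), with 375 higher (2.06%) and 347 lower (1.91%) in labelled tail. Group means lay at least 2-fold apart for 342 genes (1.88%). The 3 arrays of one label lay wholly above the 3 of the other for 30.2% of all genes, with labelled tail above in 12.6% and below in 17.6%, and for 721 of the 722 genes that passed the test. The median difference over all genes was -0.04. These shares over all genes are the ones to set beside the counts of list members below. Of the 722 genes, 671 were outside the adipocyte, cartilage, bone, Wnt and Hox lists, and it is these genes that are described below. The number that passed was sensitive to single arrays: it was 385 without back 6, 400 without tail 6, 471 without back 5 and 480 without back 1. Without back 1 and back 6 together, which leaves a single back array assumed to vary like the other groups, 121 genes passed.

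Some arrays stood apart in markers of other tissues. The mean of 29 cartilage genes was 1.34 on back 1 and 1.10 on back 6 against 0.04 on back 5 and -0.17 to -0.10 on the tail arrays. Skeletal muscle genes averaged 1.04 on tail 4 and -0.58 on back 5, with the other 4 arrays between 0.22 and 0.54. Cornified envelope genes of the epidermis averaged -1.27 on tail 4, 0.63 on tail 5 and -0.29 on tail 6, and 0.34 to 0.58 on the back arrays. The plot of list means by array shows these 3 patterns beside 5 other lists.

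**Figure D1:**
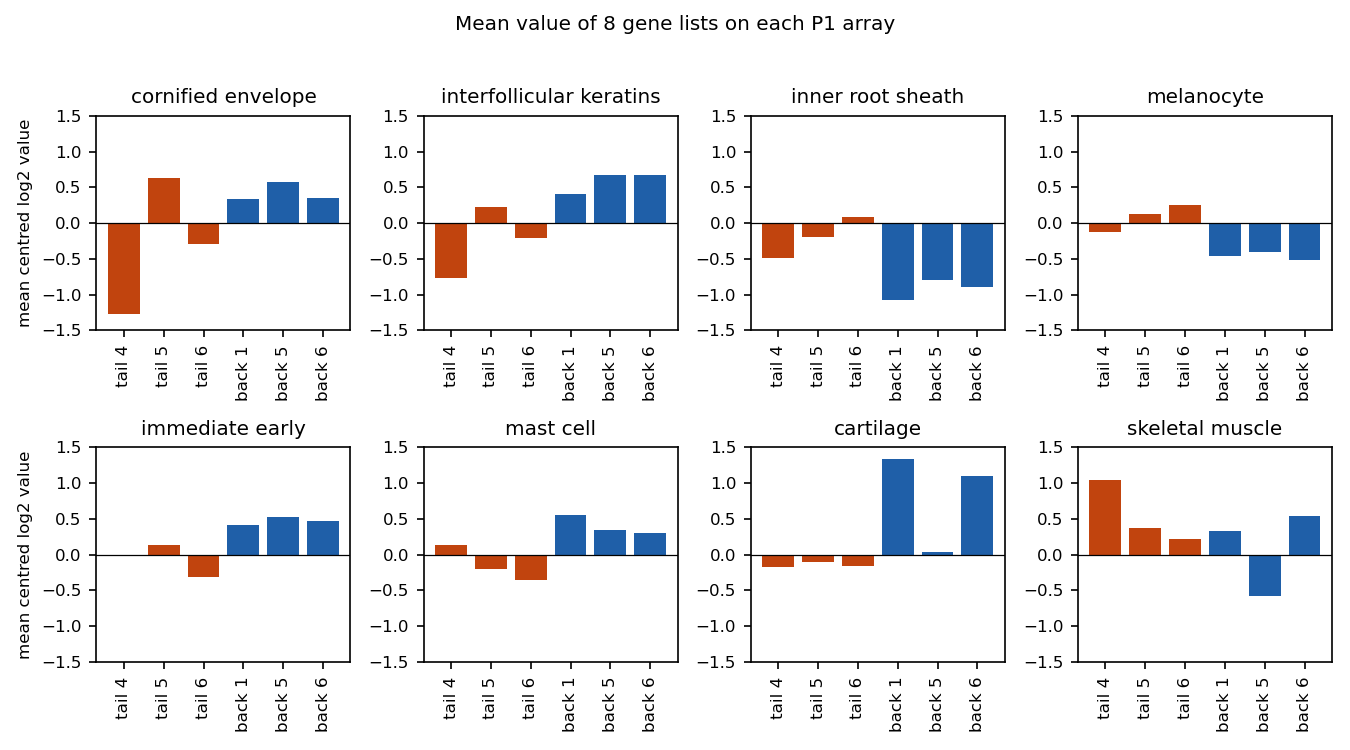
Mean centred log2 value (vertical axis) of the measured members of 8 gene lists on each of the 6 P1 arrays, with labelled tail in orange and labelled back in blue. Cartilage genes were high on back 1 and back 6 only, and cornified envelope genes were lowest on tail 4 and highest on tail 5. All lists shown except cornified envelope and skeletal muscle kept the 2 labels apart on all 6 arrays.

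Epidermal genes were among the largest differences of the comparison, and members of the same family moved unequally. Keratins 6, 16 and 17 are made by the HF and by epidermis that is wounded or growing fast. Krt16 read -0.97, 0.81 and -0.15 on the tail arrays and 3.88, 4.17 and 4.17 on the back arrays, a difference of -4.18 (SE 0.35, limma adjusted p = 2.7e-05). Krt6b read -0.27, -0.08 and 0.06 against 2.47, 4.32 and 4.31, a difference of -3.80 (SE 0.39, limma adjusted p = 0.00013). In both genes every back array lay above every tail array by more than 2 units. Krt6a and Krt17, the partners that are usually listed with them, gave 0.45 (SE 0.27, limma adjusted p = 0.50) and 0.11 (SE 0.12, limma adjusted p = 0.74).

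Krt12, best known as a keratin of the cornea, read -0.69, -0.06 and -0.17 on the tail arrays and 2.15, 3.49 and 3.99 on the back arrays, and differed by -3.51 (SE 0.36, limma adjusted p = 0.00011). Krt24 was lower by -1.29 (SE 0.13) and Krt7, a keratin of simple and glandular epithelia, by -1.81 (SE 0.20). Krt79, a keratin of the duct of the HF, was higher by 0.59 (SE 0.10). The abundant keratins of the interfollicular epidermis did not pass the test, with Krt1 at -1.75 (SE 0.56, limma adjusted p = 0.13) and Krt10, named after its values were seen, at -1.07 (SE 0.34, limma adjusted p = 0.12). Both were spread widely in labelled tail, from -2.09 to 0.91 for Krt1, and both passed without tail 5, with adjusted p-values of 0.014 and 0.021. Of 13 interfollicular keratins, 3 were higher and 2 lower, 5 in all, which became 3 without tail 6, back 1 or back 6. Of 14 basal epidermal genes 3 were lower, which became 1 without tail 4, tail 6, back 5 or back 6 and 6 without tail 5. Among them Ly6d, a surface protein of stratified epithelium, was lower by -1.93 (SE 0.34, limma adjusted p = 0.0058).

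Because the keratin genes sit side by side in a type I and a type II cluster, the P1 differences were also read in genome order. In the type I cluster Krt24 was lower, its neighbours Krt25, Krt26, Krt27 and Krt28 were higher by 0.56, 0.80, 0.56 and 1.01, Krt10 did not pass and Krt12 was lower. Krt25, Krt27 and Krt73, described next, were named for their position after their values were seen. In the type II cluster Krt72 and Krt73 were higher by 0.96 and 0.74, the next gene Krt2 was lower by -7.57, Krt1 did not pass and Krt77 was higher by 1.99 (SE 0.50, limma adjusted p = 0.045). The sign of the difference thus changed between direct neighbours in both clusters. The call of Krt77 was lost without any 1 of tail 5, tail 6, back 1, back 5 and back 6, with adjusted p-values from 0.10 to 0.15, and those of Krt25, Krt26, Krt27, Krt72 and Krt73 were each lost without tail 6 (0.075 to 0.19), back 1 (0.067 to 0.15) or back 6 (0.07 to 0.12). Krt26, Krt27 and Krt72 also missed the threshold without tail 5 (0.073, 0.10 and 0.078), and Krt27 and Krt72 without back 5 (0.078 and 0.061).

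**Figure D2:**
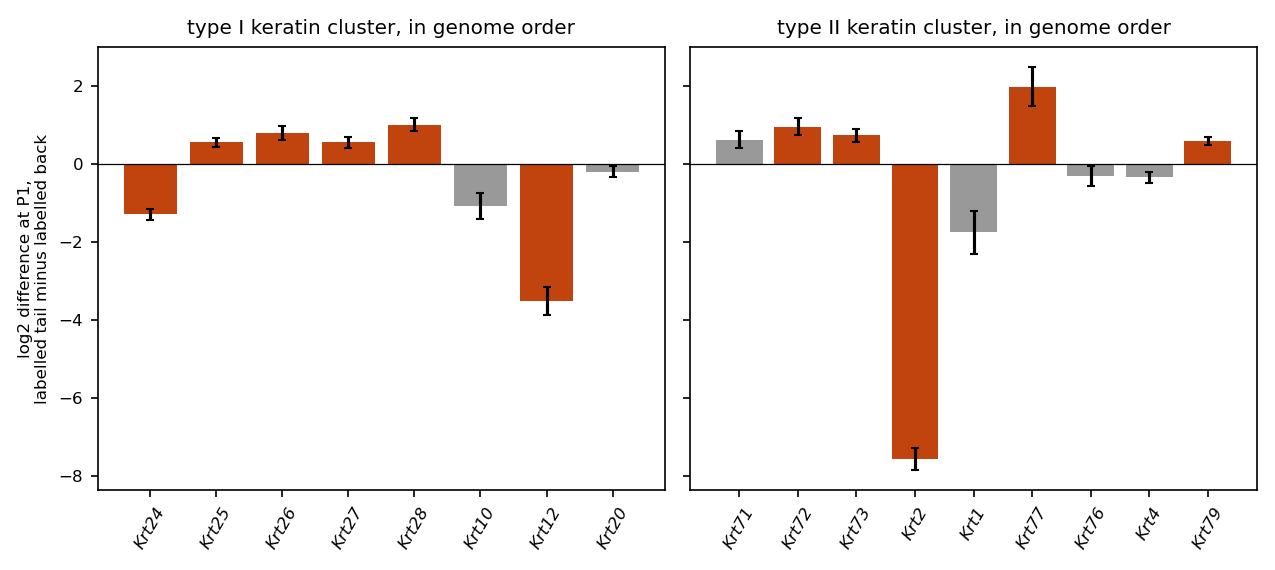
log2 difference at P1, labelled tail minus labelled back (vertical axis), of neighbouring keratin genes of the type I and the type II cluster in genome order. Bars show the difference and its standard error in the limma fit over 12 arrays, with orange for an adjusted p under 0.05 and grey otherwise. Genes of the inner root sheath (Krt25 to Krt28, Krt72 and Krt73) were above 0 beside Krt2, Krt12 and Krt24, which were below 0.

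The cornified envelope, the cross-linked protein shell of dead keratinocytes, showed the same unevenness among the small proline-rich (Sprr) proteins that build it. The 300 bases around the start of 3 of these genes (250 before to 50 after, RefSeq, GRCm38.p6) are shown because their differences ranged from strongly lower to higher while all 3 windows held the letters TGANTCA, the core motif bound by AP-1 factors such as FOS and JUN. Capitals mark each match on either strand. Windows are Sprr1b at chr3:92438730-92439029 on the minus strand, Sprr2d at chr3:92338890-92339189 on the plus strand and Sprr1a at chr3:92485832-92486131 on the minus strand.
Sprr1b: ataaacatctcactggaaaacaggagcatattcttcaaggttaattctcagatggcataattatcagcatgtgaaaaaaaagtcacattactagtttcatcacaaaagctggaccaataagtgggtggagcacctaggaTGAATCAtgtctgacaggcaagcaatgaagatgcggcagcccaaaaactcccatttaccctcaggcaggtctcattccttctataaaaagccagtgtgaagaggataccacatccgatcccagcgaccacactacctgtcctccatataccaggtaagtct
Sprr2d: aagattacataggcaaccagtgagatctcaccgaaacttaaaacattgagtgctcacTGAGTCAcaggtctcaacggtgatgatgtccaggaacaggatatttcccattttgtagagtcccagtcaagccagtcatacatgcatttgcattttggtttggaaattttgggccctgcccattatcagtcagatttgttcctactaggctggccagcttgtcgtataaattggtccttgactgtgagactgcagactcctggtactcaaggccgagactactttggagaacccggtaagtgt
Sprr1a: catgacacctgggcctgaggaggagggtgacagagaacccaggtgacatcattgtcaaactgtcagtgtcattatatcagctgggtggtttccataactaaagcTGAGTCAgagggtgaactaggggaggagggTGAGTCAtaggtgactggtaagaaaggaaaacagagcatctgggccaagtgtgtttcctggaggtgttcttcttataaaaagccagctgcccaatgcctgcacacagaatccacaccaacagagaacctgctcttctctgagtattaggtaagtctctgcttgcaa

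The motif lay in 12 of the 35 cornified envelope genes with a window (37 windows) and in 7.81% of all 32851 windows. Sprr1b read -4.11, 0.50 and -1.29 on the tail arrays and 2.77, 3.32 and 3.24 on the back arrays, a difference of -4.74 (SE 0.81, limma adjusted p = 0.0045). Sprr2d read -0.73, 0.77 and -0.07 against 3.45, 4.48 and 3.96, a difference of -3.97 (SE 0.37, limma adjusted p = 5.6e-05). Sprr1a, named after its values were seen, read -0.63, -0.20 and -0.05 against -1.18, -0.75 and -0.96, and was higher by 0.67 (SE 0.16, limma adjusted p = 0.032). The first 2 genes were lower on every tail array and the last was higher on every tail array. The window of Sprr1a held 2 matches of the motif, and whether the motif bears on these differences was not tested. The Sprr1a call was lost without tail 5, tail 6, back 1 or back 6, with adjusted p-values of 0.092, 0.17, 0.14 and 0.12.

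Along the Sprr cluster the lower genes were interrupted by genes that did not pass. No value was available for Sprr2e, between Sprr2d and Sprr2f, or for Sprr2a1, Sprr2a2, Sprr2a3 and Sprr2b before Sprr2d. Among genes with a value, Sprr2d (-3.97) was followed by Sprr2f (-0.34), Sprr2h (-2.43), Sprr2i (-0.13), Sprr2k (-1.07), Sprr1b (-4.74), Sprr3 (-0.30) and Sprr1a (0.67). Of these, Sprr2f, Sprr2i and Sprr3 had limma adjusted p-values of 0.46, 0.80 and 0.38. These 3 genes and Sprr2k were named for their position, after their values were seen. The only probe set of Sprr2h carries a suffix for sequence shared with other transcripts, so its share of the signal is uncertain. Tgm3, a transglutaminase that cross-links envelope proteins, read -2.74, -0.94 and -1.78 on the tail arrays and 0.02, 0.50 and 0.58 on the back arrays, a difference of -2.19 (SE 0.41, limma adjusted p = 0.0078). Of the 41 cornified envelope genes measured, 6 were lower and 2 higher, 36 lay below 0 and the median was -0.56. The number that passed was 8, and 13 without tail 5. Fewer cells of a type and less RNA per cell cannot be told apart in these bulk samples.

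Some proteases and protease inhibitors of the epidermis were lower as well. Serpinb12 read -1.43, 1.61 and -0.04 on the tail arrays and 3.04, 3.39 and 3.54 on the back arrays, a difference of -3.28 (SE 0.54, limma adjusted p = 0.0035). Serpinb3a gave -3.83 (SE 0.73, limma adjusted p = 0.0092) from a single probe set with shared sequence, and Klk13, a kallikrein serine protease, gave -2.30 (SE 0.41, limma adjusted p = 0.0055). Of 32 protease and inhibitor genes 6 were lower and none higher (12 lower and 2 higher at an unadjusted p under 0.05), with 20 below 0 and 12 above and a median of -0.36, and 14 passed without tail 5. Other epithelial genes among the 20 most strongly lower genes were Mal2, a membrane protein of epithelial transport, at -2.44 (SE 0.33) and H60c, a skin ligand of the NKG2D receptor, at -2.74 (SE 0.45). The mean of the cornified envelope list moved with the arrays as given above, and its part in these differences was not tested.

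The inner root sheath, the layer of the HF that moulds the growing hair, had 7 of 12 measured genes higher in labelled tail. All 12 measured members lay above 0, the lowest at 0.40 and the highest at 1.12, with a median of 0.68. In 11 of the 12 the tail arrays were wholly above the back arrays, against 12.6% of all genes. Krt28 read -0.34, -0.24 and 0.21 on the tail arrays and -1.26, -1.06 and -1.07 on the back arrays, a difference of 1.01 (SE 0.17, limma adjusted p = 0.0041). Tchh, which encodes the sheath protein trichohyalin, read -0.40, -0.13 and 0.47 against -1.33, -0.93 and -1.15, a difference of 1.12 (SE 0.23, limma adjusted p = 0.017), and did not pass without tail 6 (0.078), back 1 (0.076) or back 6 (0.069). In total 7 members were higher and none lower (11 higher and 0 lower at an unadjusted p under 0.05). The 7 became 4 without tail 5 and 1 without tail 6, back 1 or back 6, in each case Krt28.

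Genes of the hair shaft itself gave no calls, against 3.97% of all genes. This does not show that they were alike in both labels. Of 11 hair shaft keratins and 38 keratin-associated proteins, 0 passed with limma, 0 with the methods' t-test after adjustment, and 1 of each list passed at an unadjusted p under 0.05. Their medians were -0.03 and -0.09. Vdr, the vitamin D receptor needed for hair cycling, was higher by 1.02 (SE 0.13, limma adjusted p = 0.00073), 1 of 3 higher genes among 19 epithelial HF regulators. The other two, Lhx2 and Tbx1, were higher by 0.70 and 0.49, and both lost their calls without tail 4, tail 5, tail 6, back 1 or back 6, and Lhx2 also without back 5, with adjusted p-values from 0.066 to 0.14. The 3 genes that passed in this list became 1 without tail 5, tail 6, back 1 or back 6.

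In the dermal papilla, the fibroblast cluster at the base of the HF, single markers moved in both directions. Corin, a protease that marks the papilla, read 1.52, 1.59 and 1.94 on the tail arrays and -0.45, -0.29 and -0.60 on the back arrays, a difference of 2.13 (SE 0.18, limma adjusted p = 2.9e-05). Hhip, which binds Hedgehog ligands, was higher by 0.97 (SE 0.12) and the T-box factor Tbx18 by 0.94 (SE 0.16). Crabp1, a retinoic acid binding protein of papilla and papillary fibroblasts, read -1.36, -2.01 and -1.84 against 0.27, 0.13 and -0.02, a difference of -1.87 (SE 0.22, limma adjusted p = 0.00042), and the keratinocyte growth factor Fgf7 was lower by -0.76 (SE 0.13). Corin and Crabp1 thus separated the labels completely and in opposite directions. Of 21 papilla genes 3 were higher and 2 lower, with a median of 0.17, and 5 passed whichever P1 array was left out.

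**Figure D3:**
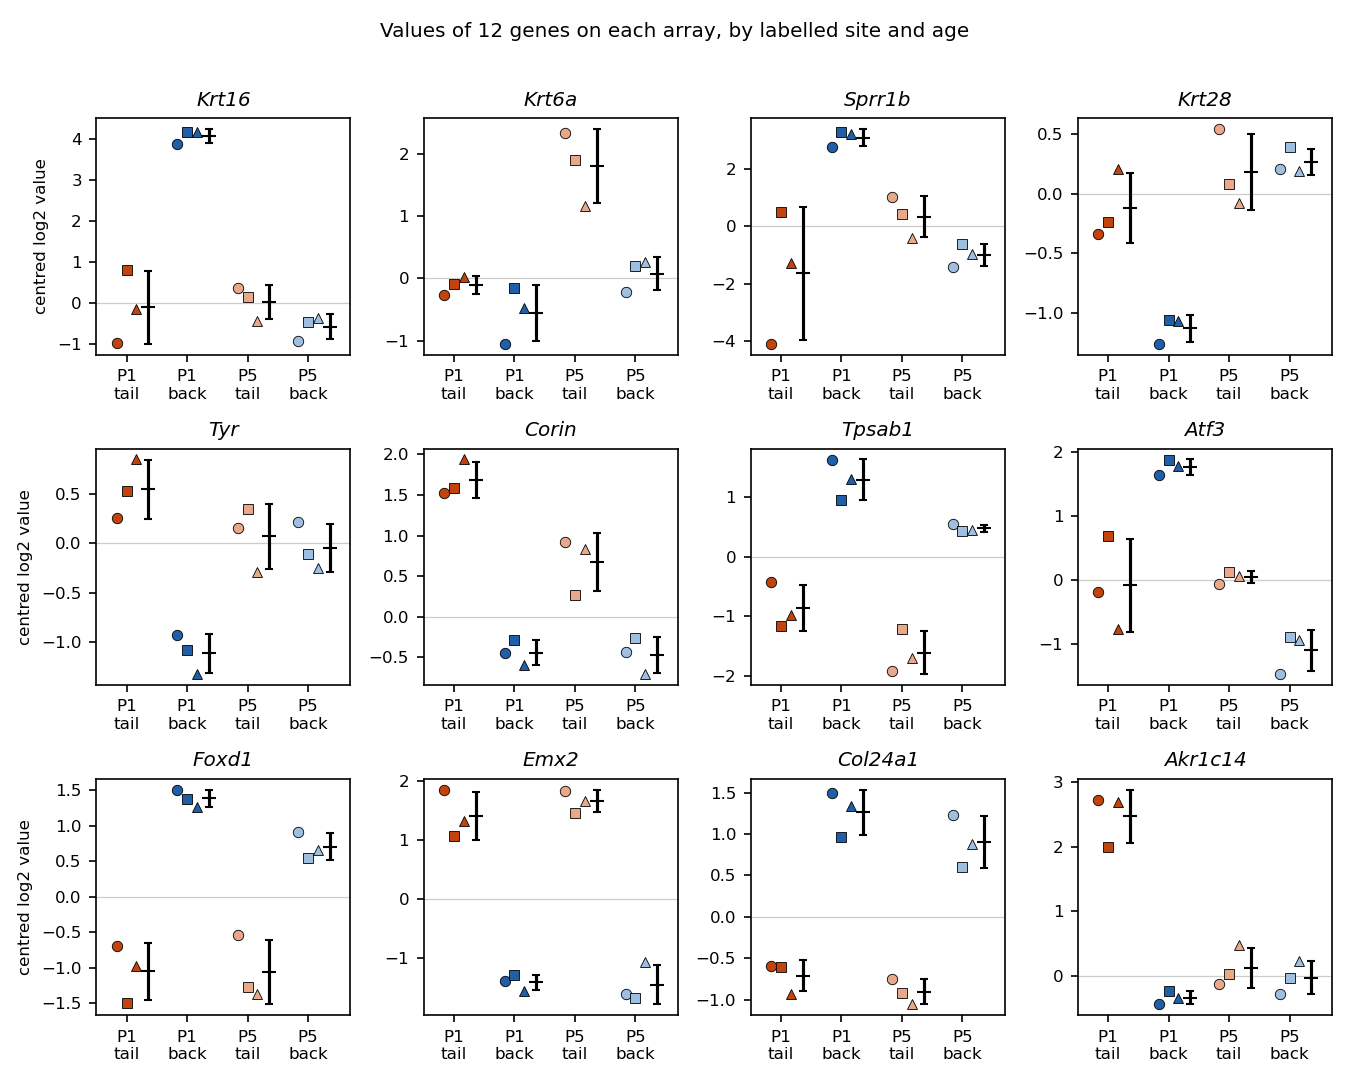
Centred log2 value (vertical axis) of 12 genes on each of the 12 arrays, grouped by labelled site and age. Circles, squares and triangles are the 3 arrays of a group in order of replicate number, and bars are the mean ± SD of the 3 arrays. At P1 the labels were apart for every gene shown except Krt6a, and for Krt16, Sprr1b, Krt28, Tyr, Atf3 and Akr1c14 the gap at P1 was not matched at P5.

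Of the pigment cell genes, 9 of 20 were higher in labelled tail. Melanocytes settle in the HF around birth, and their pigment enzymes are switched on by MITF through a motif called the M-box. The windows of 4 of these genes are shown because all 4 genes were higher and each window holds the M-box letters TCATGTG, in capitals for a match on either strand (RefSeq, GRCm38.p6). Since the 4 were picked for both traits, they cannot show a link between motif and direction, which was not tested. They lie at chr7:87493463-87493762 on the minus strand (Tyr), chr4:80833963-80834262 on the plus strand (Tyrp1), chr14:118052197-118052496 on the minus strand (Dct) and chr7:64153585-64153884 on the plus strand (Trpm1, 1 of its 2 windows).
Tyr: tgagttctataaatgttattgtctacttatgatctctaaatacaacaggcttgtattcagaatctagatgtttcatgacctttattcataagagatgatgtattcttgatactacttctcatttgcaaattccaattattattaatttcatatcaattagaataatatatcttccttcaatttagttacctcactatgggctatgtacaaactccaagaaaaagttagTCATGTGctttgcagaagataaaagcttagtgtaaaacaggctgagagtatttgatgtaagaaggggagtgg
Tyrp1: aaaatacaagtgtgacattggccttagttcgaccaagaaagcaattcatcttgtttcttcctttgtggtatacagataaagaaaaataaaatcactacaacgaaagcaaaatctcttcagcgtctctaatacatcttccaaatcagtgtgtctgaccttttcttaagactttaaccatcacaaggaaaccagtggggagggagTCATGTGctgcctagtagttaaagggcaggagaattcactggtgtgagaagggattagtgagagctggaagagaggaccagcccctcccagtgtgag
Dct: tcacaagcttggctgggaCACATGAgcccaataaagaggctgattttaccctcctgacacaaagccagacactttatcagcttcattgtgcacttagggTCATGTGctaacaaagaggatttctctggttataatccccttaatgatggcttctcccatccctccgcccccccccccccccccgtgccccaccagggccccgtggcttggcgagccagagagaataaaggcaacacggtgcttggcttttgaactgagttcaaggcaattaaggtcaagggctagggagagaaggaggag
Trpm1: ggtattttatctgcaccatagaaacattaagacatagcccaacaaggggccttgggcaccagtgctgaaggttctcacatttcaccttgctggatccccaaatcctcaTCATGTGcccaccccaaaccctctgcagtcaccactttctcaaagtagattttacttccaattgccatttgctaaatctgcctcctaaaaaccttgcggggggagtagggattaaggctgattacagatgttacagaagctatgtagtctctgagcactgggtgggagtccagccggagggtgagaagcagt

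These letters occurred in 3.77% of all 32851 windows and in 5 of the 14 melanocyte genes with a window (19 windows). The 5th was Mc1r, named for its window only. Tyr, the rate-limiting enzyme of melanin synthesis, read 0.26, 0.53 and 0.85 on the tail arrays and -0.93, -1.08 and -1.32 on the back arrays, a difference of 1.66 (SE 0.19, limma adjusted p = 0.00033). Tyrp1 read 0.00, 0.47 and 0.72 against -1.20, -1.03 and -1.43, a difference of 1.62 (SE 0.21, limma adjusted p = 0.00076). Dct, the third enzyme of the pathway, read 0.30, 0.41 and 0.57 against -0.91, -0.76 and -0.92, a difference of 1.28 (SE 0.17, limma adjusted p = 0.00076). In all 3 enzymes every tail array lay above every back array.

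The cation channel Trpm1 and the endothelin receptor Ednrb, which guides melanocyte precursors, were higher by 0.94 (SE 0.18) and 0.83 (SE 0.14), and were named after their values were seen. Of 20 melanocyte genes 9 were higher and 1 lower, against 2.06% and 1.91% of all genes, and the median was 0.64. On the arrays 12 lay wholly above and 1 wholly below, against 12.6% and 17.6% of all genes. The lower gene was Rab38, a GTPase of melanosome transport also named after its values were seen, at -0.92 (SE 0.21, limma adjusted p = 0.027), which lost its call without tail 4 (0.11), tail 6 (0.097), back 5 (0.12) or back 6 (0.14). The 10 genes that passed became 6 without tail 6 and 5 without back 6. Adamts20, a secreted protease known for its role in melanoblast survival in mice, read 1.79, 1.21 and 1.80 against -0.28, -0.46 and 0.05, and was higher by 1.83 (SE 0.28, limma adjusted p = 0.0022).

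**Figure D4:**
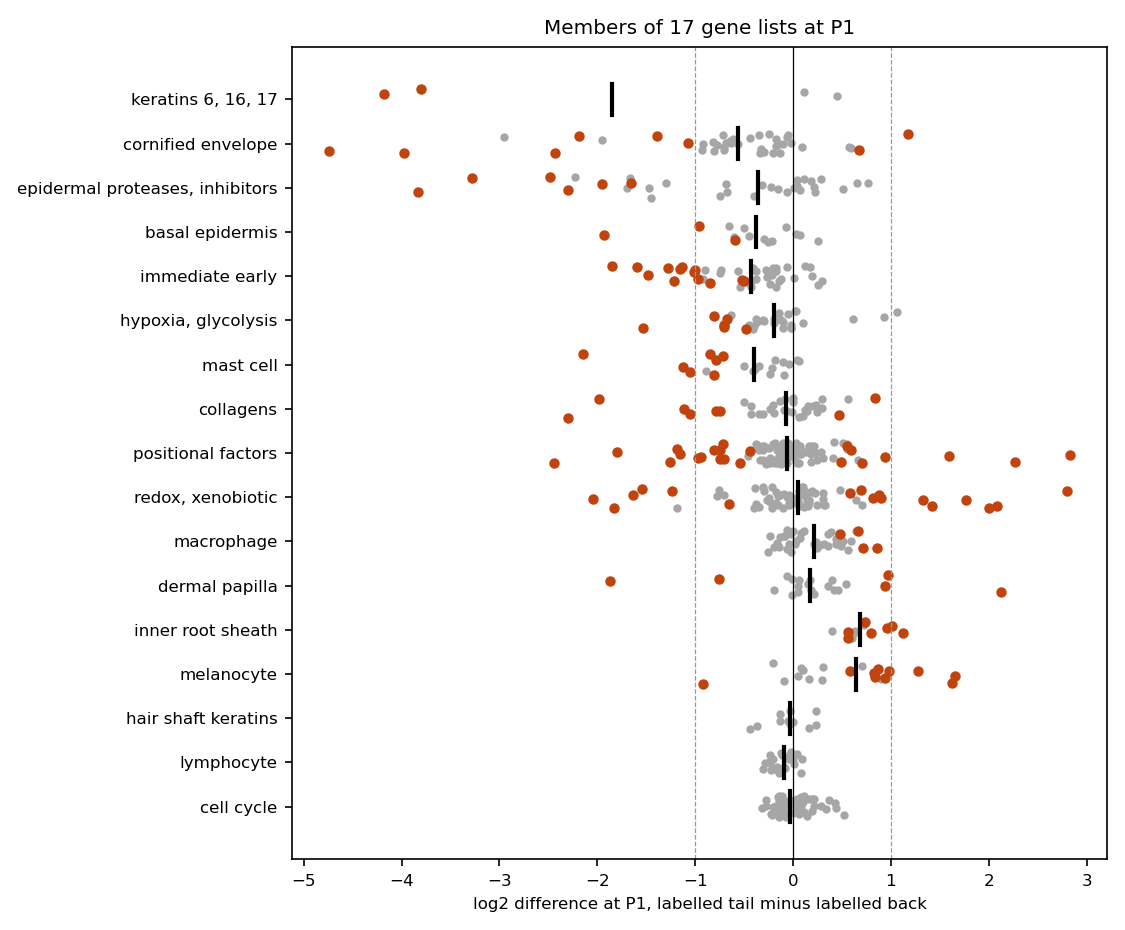
log2 difference at P1, labelled tail minus labelled back (horizontal axis), of every measured member of 17 gene lists. Orange points had a limma adjusted p under 0.05 over all genes and grey points did not, black bars are list medians and dashed lines mark 2-fold. Medians of the inner root sheath (0.68) and melanocyte (0.64) lists lay to the right of 0, and those of the cornified envelope (-0.56), immediate early (-0.43) and mast cell (-0.40) lists to the left.

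Among immune cells, 7 of 20 mast cell genes were lower and 4 of 41 macrophage genes higher in labelled tail. Tpsab1, a mast cell tryptase, read -0.43, -1.17 and -0.98 on the tail arrays and 1.62, 0.94 and 1.30 on the back arrays, a difference of -2.15 (SE 0.22, limma adjusted p = 0.00011). The second tryptase Tpsb2 was lower by -1.05 (SE 0.18, limma adjusted p = 0.005), and both genes have probe sets marked for shared sequence, so that they may share signal. Of 20 mast cell genes 18 lay below 0, 7 were lower and none higher (8 lower and 0 higher at an unadjusted p under 0.05), and the median was -0.40. The 7 became 4 without tail 5 or back 6, 3 without back 5 and 2 without tail 6 or back 1.

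Of 41 macrophage genes 4 were higher and none lower (14 higher and 0 lower at an unadjusted p under 0.05), with a median of 0.21. F13a1, a clotting factor subunit of resident macrophages, read 0.69, 0.18 and 0.35 on the tail arrays and -0.33, -0.42 and -0.18 on the back arrays, a difference of 0.72 (SE 0.12, limma adjusted p = 0.005). Maf, a transcription factor of macrophages and of epidermis, read -0.01, -0.13 and 0.17 against -0.75, -0.97 and -0.84, a difference of 0.86 (SE 0.10, limma adjusted p = 0.00042). These 2 genes kept their calls whichever P1 array was left out, whereas the 4 calls became 2 without tail 4, tail 5, back 1, back 5 or back 6. The remaining 2 were Cd163 (0.66) and Lyz1 (0.48), which each lost the call without any 1 of the 6 arrays (adjusted p from 0.054 to 0.17), and 1 of the 3 probe sets of Lyz1 had the opposite sign.

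The chemokines that passed the test were lower, as was the cytokine Il33. Cxcl14, a chemokine of skin epithelium and fibroblasts, read -0.98, -0.62 and -0.79 on the tail arrays and 0.49, 0.48 and 0.45 on the back arrays, a difference of -1.27 (SE 0.18, limma adjusted p = 0.0011). The neutrophil chemokine Cxcl5 gave -1.0 (SE 0.19, limma adjusted p = 0.0089). Il33, an alarm cytokine held in the nuclei of skin cells, read -0.50, -0.85 and -0.86 against 0.87, 0.50 and 0.87, a difference of -1.48 (SE 0.18, limma adjusted p = 0.00046). All 3 genes were lower on every tail array. Of 54 chemokine genes 5 were lower and none higher (13 lower and 2 higher at an unadjusted p under 0.05), which became 3 without tail 4, back 5 or back 6 and 2 without tail 6 or back 1.

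Immediate early genes, which cells switch on within minutes of growth signals, injury or handling, included 13 of 42 that were lower in labelled tail. Atf3 read -0.19, 0.69 and -0.76 on the tail arrays and 1.63, 1.87 and 1.78 on the back arrays, a difference of -1.85 (SE 0.28, limma adjusted p = 0.0018). Fosb, a subunit of AP-1, read 0.23, -0.03 and -1.08 against 1.11, 1.24 and 1.19, a difference of -1.48 (SE 0.25, limma adjusted p = 0.0042). The back arrays were close to each other while the tail arrays spread over more than 1 unit. Of 42 such genes 36 lay below 0, 13 were lower and none higher (25 lower and 0 higher at an unadjusted p under 0.05), and the median was -0.43. The 13 became 6 without back 5 or back 6 and 5 without tail 6. The separating solutions differed between the labels, and the part of that step in these differences cannot be told apart from body site.

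Slc2a1, the glucose transporter GLUT1, read -0.54, 0.29 and -0.34 on the tail arrays and 1.10, 1.48 and 1.40 on the back arrays, a difference of -1.53 (SE 0.20, limma adjusted p = 0.00072). Of 31 genes of hypoxia and glycolysis 6 were lower and none higher (12 lower and 3 higher at an unadjusted p under 0.05), which became 2 lower without back 1 or back 5, 1 lower without back 6, and 1 lower and 1 higher without tail 6. Of 31 heat shock genes 1 was lower and none higher (3 higher and 4 lower at an unadjusted p under 0.05), with a median of 0.03. This was 3.23%, against 3.97% of all genes. The lower gene was Dnajb1, at -0.88 (SE 0.20, limma adjusted p = 0.023). It lost its call without tail 4 (0.09), tail 6 (0.12), back 5 (0.09) or back 6 (0.11).

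Patterning factors other than the Hox genes separated the labels in both directions. Emx2, a homeobox factor of brain, urogenital tract and shoulder girdle development, read 1.86, 1.07 and 1.32 on the tail arrays and -1.39, -1.29 and -1.55 on the back arrays, a difference of 2.83 (SE 0.20, limma adjusted p = 9.3e-06). Zic1, a zinc finger factor of the dorsal neural tube and dorsal mesoderm, read 1.38, 0.92 and 1.63 against -0.68, -0.99 and -1.22, a difference of 2.27 (SE 0.22, limma adjusted p = 0.0001). Its genomic partner Zic4, named after its values were seen, was higher by 0.59 (SE 0.10). All 3 factors were higher on every tail array.

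Foxd1, a forkhead factor known from the kidney stroma, read -0.69, -1.49 and -0.97 on the tail arrays and 1.51, 1.38 and 1.27 on the back arrays, a difference of -2.44 (SE 0.23, limma adjusted p = 5.6e-05). Pax9, a paired box factor of the vertebral column and limbs, read -1.27, -0.85 and -1.05 against 0.96, 0.52 and 0.76, a difference of -1.80 (SE 0.20, limma adjusted p = 0.00021). Named after their values were seen, Tbx4, a T-box factor of the hindlimb, was lower by -0.94 (SE 0.14), Prrx2 by -1.15 (SE 0.19) and Foxp2 by -0.97 (SE 0.13). Of 105 patterning factors without the Hox genes, 8 were higher and 14 lower, and the median was -0.06. The 22 became 14 without tail 6 or back 6. Emx2, Zic1, Foxd1 and Pax9 differed in the same direction at P5, by 3.11, 2.18, -1.76 and -1.68, and none of them passed the interaction of site and age (adjusted p from 0.36 to 0.94). Other factors did, and the interaction passed for 10 of the 105, against 2.87% of all genes. Irx5, named after its values were seen, was lower by -0.75 at P1 (limma adjusted p = 0.005) and higher by 0.87 at P5 (limma adjusted p = 0.0015).

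In the extracellular matrix, several minor collagens were lower in labelled tail. Col24a1, a minor fibrillar collagen, read -0.60, -0.61 and -0.93 on the tail arrays and 1.49, 0.96 and 1.34 on the back arrays, a difference of -1.98 (SE 0.18, limma adjusted p = 3.8e-05). Col8a2 gave -2.30 (SE 0.31) and its chain partner Col8a1 -1.05 (SE 0.11), and Col12a1, which decorates collagen fibrils, -1.11 (SE 0.12). Col15a1, a collagen near basement membranes that was named after its values were seen, was higher by 0.84 (SE 0.14). Back arrays for Col8a2 were uneven, at 1.57, 0.17 and 1.42, in the order in which cartilage genes were high, low and high. Its difference against back 5 alone was -1.41, and those of Col24a1, Col8a1 and Col12a1 were -1.67, -1.06 and -1.05. A single back array cannot tell the part of the cartilage signal in these collagens, which was not tested.

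Of 34 collagens 2 were higher and 6 lower. The 8 became 5 without tail 6 or back 1. Mkx, a transcription factor of tendon, followed the cartilage arrays as well, reading 1.77, -0.02 and 0.75 on the back arrays against -1.71, -1.82 and -1.82 on the tail arrays, and differed by -2.61 (SE 0.35, limma adjusted p = 0.00089). Against back 5 alone its difference was -1.76, and the part of the cartilage signal in it was not tested.

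Matrix proteases, inhibitors and adhesion proteins were mixed. Mmp11, a stromal metalloproteinase, read 0.13, -0.40 and -0.40 on the tail arrays and 1.38, 1.03 and 1.02 on the back arrays, a difference of -1.37 (SE 0.20, limma adjusted p = 0.0016). Timp4, an inhibitor of such enzymes, was higher by 1.04 (SE 0.17). Tnn, a tenascin, was lower by -1.46 (SE 0.21) and Dpt, the dermal matrix protein dermatopontin, higher by 0.99 (SE 0.14). Of 40 MMP, ADAMTS and TIMP genes 7 were higher and 4 lower, and the 11 became 6 without tail 6, and 7 without tail 4, back 5 or back 6.

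Enzymes of steroid, alcohol and aldehyde metabolism differed strongly and in both directions. Akr1c14, an aldo-keto reductase of steroid hormones, read 2.72, 1.99 and 2.69 on the tail arrays and -0.43, -0.23 and -0.33 on the back arrays, a difference of 2.80 (SE 0.21, limma adjusted p = 1.1e-05). Akr1c18, which inactivates progesterone, read 1.68, 1.77 and 1.88 against -0.35, -0.34 and 0.02, a difference of 2.00 (SE 0.17, limma adjusted p = 3.3e-05). Cyp2e1, a cytochrome P450 of small molecules, was higher by 2.08 (SE 0.26). Adh1, an alcohol and retinol dehydrogenase, read -0.17, 0.61 and -0.42 against 1.69, 2.21 and 2.25, and was lower by -2.04 (SE 0.27, limma adjusted p = 0.00081), and the glutathione transferase Gsta4, named after its values were seen, by -1.63 (SE 0.20). The first 3 enzymes were higher and the last 2 lower on every tail array. Of 76 redox and xenobiotic genes 11 were higher and 6 lower, with a median of 0.05, and the 17 became 10 without tail 4, tail 6 or back 5 and 11 without back 1 or back 6.

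Retinoid genes also moved both ways. Rbp4, the carrier of retinol, read 1.42, 0.77 and 1.11 on the tail arrays and -1.08, -1.05 and -1.08 on the back arrays, a difference of 2.17 (SE 0.23, limma adjusted p = 0.00016). Aldh1a1, which makes retinoic acid, was higher by 1.77 (SE 0.18, limma adjusted p = 0.00011). The intracellular binding protein Crabp2, named after its values were seen, was lower by -1.06 (SE 0.21, limma adjusted p = 0.01), a call that was lost without tail 6 (0.061), beside the lower Crabp1 described above. Of 29 retinoid genes 3 were higher and 4 lower, and the 7 became 4 without tail 6.

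Several of the most strongly higher genes outside the adipocyte list are also known from fat. Hp, the haemoglobin-binding protein haptoglobin, read 2.27, 1.94 and 1.67 on the tail arrays and -0.98, -1.11 and -1.41 on the back arrays, a difference of 3.13 (SE 0.23, limma adjusted p = 1.2e-05). Gpat3, an enzyme of triglyceride synthesis, gave 2.59 (SE 0.17, limma adjusted p = 3e-06) and G0s2, an inhibitor of triglyceride breakdown, 1.85 (SE 0.20, limma adjusted p = 0.00018). Slc36a2, an amino acid transporter, gave 2.14 (SE 0.30) and the carbonic anhydrases Car4 and Car5b 2.17 (SE 0.26) and 1.80 (SE 0.24). The mean of the 36 adipocyte genes was 0.42 to 0.67 on the tail arrays and -0.63 to -0.50 on the back arrays. Its part in these differences, or in those of Rbp4, Cyp2e1 and Timp4 given above, was not tested. Other higher genes without such a link were Fat3, an atypical cadherin, at 1.95 (SE 0.20) and Chodl, a membrane lectin, at 1.82 (SE 0.21).

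Imprinted genes and growth factors gave a few large differences. Zim1, an imprinted zinc finger gene, read 1.11, 1.05 and 0.98 on the tail arrays and -0.64, -1.14 and -0.96 on the back arrays, a difference of 1.96 (SE 0.16, limma adjusted p = 2.1e-05). Peg10, an imprinted gene derived from a retrotransposon, read -0.01, -0.49 and -0.95 against 1.79, 1.39 and 1.25, a difference of -1.96 (SE 0.20, limma adjusted p = 0.00011). The 2 differences were of equal size and opposite sign, and no link between the 2 genes was tested. Of 34 imprinted and insulin-like growth factor genes 2 were higher and 3 lower, the latter including Igfbp5, a binding protein of insulin-like growth factors, at -1.33 (SE 0.19). Of 38 fibroblast growth factor genes 2 were higher and 3 lower, with the intracellular family member Fgf14 at 1.30 (SE 0.12), the receptor Fgfr4 at 1.05 (SE 0.13) and the ligand Fgf18 at -1.28 (SE 0.20).

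Several cell classes of the dermis gave few calls or none. With 3.97% of all genes passing, lists this short would hold few calls in any case. Of 59 cell cycle genes 0 passed with limma and 0 with the methods' t-test after adjustment, with 3 higher and 0 lower at an unadjusted p under 0.05. For 25 lymphocyte genes the count was 0 with limma, adjusted or not, and with the t-test, for 20 Langerhans and MHC class II genes 0 passed and 1 was lower unadjusted, and for 10 Merkel cell genes 0 passed and 1 was higher and 1 lower unadjusted. Among 63 skeletal muscle genes 1 was higher, with 13 higher and 1 lower unadjusted. A p that missed the threshold does not show that these cell classes were alike in both labels.

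The P5 arrays were separate mice, and the P1 differences were set beside theirs. Of the 722 genes that passed at P1, 226 passed at P5 in the same direction (132 higher and 94 lower), 30 passed in the opposite direction and 466 did not pass at P5, where 6.91% of all genes passed (4.3% higher and 2.61% lower). An interaction of site and age, which tests whether the 2 differences are unequal, passed for 522 genes (2.87%), and 214 of these were among the 722. Of the 214, 155 had the opposite sign at P5 and 51 the same sign but a larger size at P1. The 522 became 272 without tail 6 or back 5 and 239 without back 6.

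For some epidermal, immediate early and macrophage genes the difference at P1 was not matched at P5. Krt16 differed by -4.18 at P1 and 0.61 at P5 (limma adjusted p = 0.36), an interaction of -4.79 (limma adjusted p = 0.00071). Atf3 went from -1.85 to 1.14, an interaction of -2.99 (limma adjusted p = 0.0018). Cornified envelope genes had a median of -0.56 at P1 and 0.58 at P5, where 9 were higher, and immediate early genes -0.43 at P1 and 0.37 at P5, where 11 were higher. The interaction passed for 7 of 41 and 19 of 42 of them. Macrophage genes had a median of 0.21 at P1 and -0.29 at P5, where 6 were lower and none higher, and 7 of 41 passed the interaction. F13a1 went from 0.72 to -0.83 and Cd163 from 0.66 to -0.79, both lower at P5 (limma adjusted p = 0.0015 and 0.0093).

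For some pigment and metabolic genes the gap was smaller at P5. Tyr differed by 1.66 at P1 and 0.12 at P5 (interaction 1.54, limma adjusted p = 0.0094), and Akr1c14 by 2.80 and 0.15 (interaction 2.65, limma adjusted p = 0.00075). Melanocyte genes had a median of 0.64 at P1 and 0.13 at P5, and 4 of 20 passed the interaction. Hair shaft keratins had medians of -0.03 and -1.19, with 7 of 11 lower in labelled tail at P5, and 1 of 11 passed the interaction. Mast cell genes had medians of -0.40 at P1 and -0.73 at P5, with 7 and 10 of 20 lower, and Tpsab1 differed by -2.15 at P1 and -2.08 at P5 (interaction -0.07, limma adjusted p = 0.96).

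**Figure D5:**
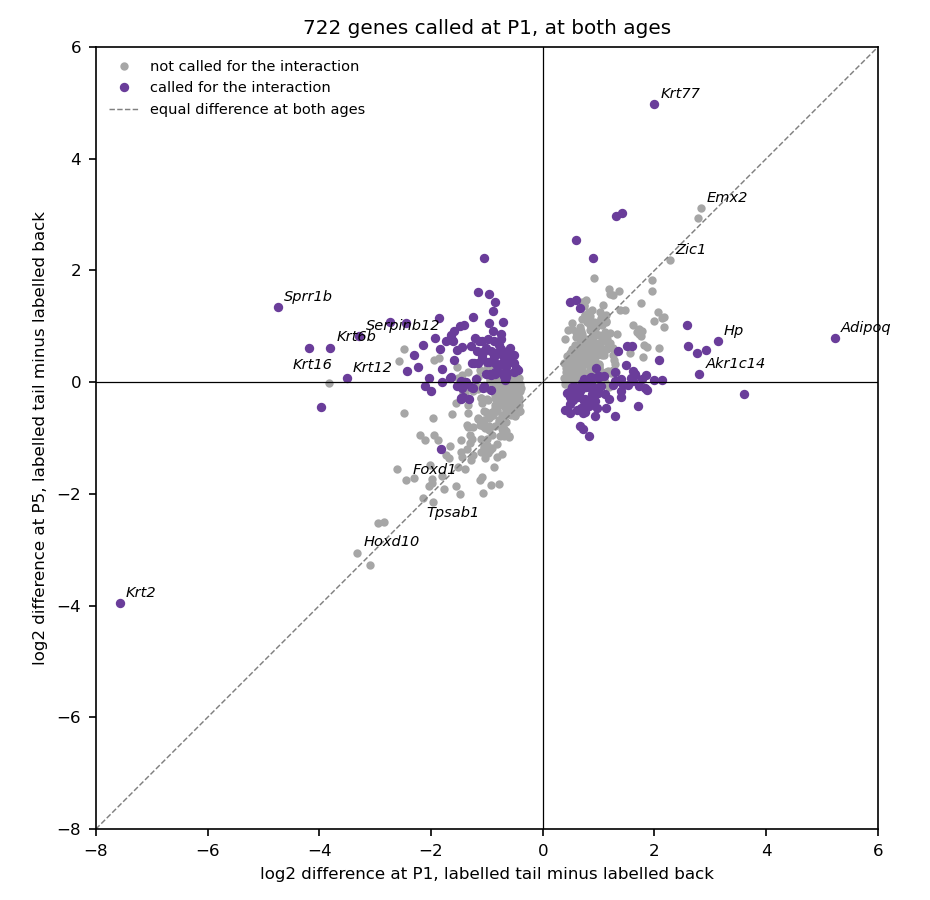
log2 difference, labelled tail minus labelled back, at P1 (horizontal axis) and at P5 (vertical axis) of the 722 genes that passed at P1. Purple genes passed the interaction of site and age and grey genes did not, and the dashed line marks equal differences. Emx2, Zic1, Foxd1 and Tpsab1 lay near the line, while Krt16, Krt6b, Krt12, Sprr1b and Serpinb12 lay far to the left of 0 with P5 differences between 0.07 and 1.34.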

How the data were processed

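Dermis RNA was hybridised to Affymetrix MG430.2A arrays, 3 in each of 4 groups (P1 and P5, labelled tail and back). The authors deposited log2 values made with RMA in GeneSpring, in which, as the values show, every probe set has a median of 0 across all 12 arrays. Absolute level is therefore lost, the study's filter on low signals could not be repeated, and precision is limited by how few arrays there are.

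From the deposited log2 values, 64 control probe sets were dropped. Of the other 45037, the platform annotation gave exactly 1 gene symbol for 34945, more than 1 for 932 and no symbol for 9160. Probe sets with 1 symbol were averaged into 18193 genes, and the 7953 with a suffix for shared sequence were left out in an alternative. limma 3.58.1 in R 4.3.3 was fitted to all 12 arrays in 4 groups without covariates (lmFit and eBayes, two-sided, Benjamini-Hochberg over all genes, threshold 0.05), and was tested on simulated data first.

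Groups came from the sample titles. The members and gene lists were chosen with earlier results of these data known, so lists are given by counts and medians without a test. Named genes were the label markers, the 20 most strongly higher and 20 most strongly lower genes outside the adipocyte, cartilage, bone, Wnt and Hox lists that passed with groups not overlapping, up to 4 members a list (all that passed where 5 or fewer did), and the 6 largest interactions among genes that also passed at P1. Not all were printed, and genes outside this rule are pointed out where they appear. Promoter windows came from RefSeq (GRCm38.p6). Alternatives changed the centring, variance, weights, replicate block, arrays, probe sets and test, and left out arrays, and the omission of back 1 and back 6 together was chosen after seeing the data.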

Additional observations from a re-analysis of the deposited data

Results flagged for a closer look

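The difference between labels at P1 was set against that at P5 for every gene in 1 test of their inequality (the interaction of site and age in limma), and 522 of 18193 genes passed it. Values are the P1 difference minus the P5 difference on the log2 scale, so that a negative value means that labelled tail was lower relative to labelled back at P1 than at P5. No explanation was tested for any of them.

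Of the genes named here, the following epidermal and epithelial genes and the transporter Slc16a14 had negative values, from Sprr1b (-6.08), Krt16 (-4.79), Krt6b (-4.42), Serpinb12 (-4.10), H60c (-3.81), Krt2 (-3.61), Krt12 (-3.58), Sprr2d (-3.53), Mal2 (-3.50), Krt77 (-2.99), Klk13 (-2.77), Ly6d (-2.72), Sprr2h (-2.63), Col17a1 (-2.53), Slc16a14 (-2.51), Krt79 (-1.96), Krt7 (-1.80), Krt14 (-1.76), Krt5 (-1.21) and Krt24 (-1.20). Immediate early genes and the glucose transporter Slc2a1 were negative too, with Atf3 (-2.99), Fosb (-2.49), Slc2a1 (-2.11), Fos (-2.03), Fosl1 (-1.98) and Hbegf (-1.92).

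Values were positive in genes of the inner root sheath, dermal papilla and pigment cells, in Adamts20 (1.94), Tyrp1 (1.60), Tyr (1.54), Tbx18 (1.27), Ednrb (1.25), Krt28 (1.10), Krt73 (1.07), Hhip (0.88) and Krt25 (0.83), and in the macrophage genes F13a1 (1.55), Cd163 (1.45), Lyz1 (0.87) and Maf (0.77). They were also positive in genes of fat, metabolism and growth factors, in Adipoq (4.44), Car3 (3.82), Akr1c14 (2.65), Hp (2.40), Slc36a2 (2.10), G0s2 (1.73), Cyp2e1 (1.69), Gpat3 (1.56) and Fgf14 (1.11).

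Of the remaining genes Rab38 (-1.47), Irx3 (-1.61), Irx5 (-1.62), Mmp11 (-1.37), Adh1 (-2.13) and Crabp2 (-1.62) were negative, and Tbx15 (0.94) was positive. Krt25, Krt73, Ednrb, Rab38, Fos, Irx3, Irx5, Tbx15 and Crabp2 were named after their values were seen.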

How the results depend on the processing

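Counts of genes that passed depended on the weighting, on the test and on single arrays, and the cause was not tested beyond the smaller number of arrays in some fits. With array weights 3650 genes and 6038 probe sets passed, against 722 and 1227, and with the methods' t-test 6 and 3 did after adjustment (3653 and 7993 before). With only the 6 P1 arrays 932 genes and 2093 probe sets passed. The arrays labelled P5 tail, which enter every fit of all 12 arrays, agreed least with each other. Their pairs differed by a root mean square of 0.39 to 0.53 log2 units over probe sets, against 0.22 to 0.36 for pairs within the other groups. Leaving out each P1 array in turn gave 385 to 789 genes and 582 to 1297 probe sets, and leaving out each of the 12 gave 239 to 731 genes for the interaction. Without back 1 and back 6 together, with the lone back array assumed to vary like the other groups, 121 genes and 168 probe sets passed. For the lists, array weights, the t-test, that omission and the range over single arrays gave 17, 0, 4 and 6 to 13 of the cornified envelope genes, 11, 0, 0 and 1 to 7 of the inner root sheath, 15, 0, 3 and 5 to 8 of the collagens, 40, 0, 5 and 14 to 19 of the patterning factors, 30, 0, 0 and 5 to 13 of the immediate early genes, 33, 0, 7 and 10 to 16 of the redox genes, and 12, 0, 1 and 2 to 9 of the mast cell genes, of which 3 passed without probe sets of shared sequence. Of the melanocyte genes 0 passed with the t-test, 1 with that omission and 5 to 11 over single arrays. Lyz1 alone among 137 genes examined changed sign, to -0.01 without probe sets of shared sequence, while with each array centred on its own median all 137 kept sign and call.

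The replicate numbers 5 and 6 are shared by both P1 groups, and same-numbered arrays deviated from their group means with correlations of 0.26 and -0.01 over genes, so that they were taken to share only a number. With the replicate number as a block 575 genes, 895 probe sets and 689 interactions passed, and 15 of the 137 genes lost their call. That block also joins P1 and P5 arrays of the same number, so it is not a test of pairing at P1.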
